A study of Mus musculus with 8 samples.

Results

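The 10 genes described here were Nfe2l2, which encodes the transcription factor NRF2, the NRF2 targets Hmox1, Nqo1, Gclc, Gclm, Slc7a11, Txnrd1, Srxn1 and Gsr, and Nnt, the mitochondrial transhydrogenase. They were chosen by name for their place in glutathione and thioredoxin chemistry, with earlier results of these data known. They were taken as rows of the gene count table, where they stand as NFE2L2, HMOX1, NQO1, GCLC, GCLM, SLC7A11, TXNRD1, SRXN1, GSR and NNT. All 10 were found among 13937 genes, and all 10 passed the filter on low counts that left 13509 genes to be tested.

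RNA-seq was performed in 8 libraries of primary astrocytes grown from the brains of C57BL/6 pups at postnatal day 1. The cultures were wild type (WT) or lacked Response Gene to Complement 32 (RGC-32, gene Rgcc), a mediator of TGF-β signalling, and the study compared how astrocytes of each genotype respond to TGF-β. There were 4 groups of 2 libraries. WT control and RGC-32 KO control cultures were untreated, and WT TGF-β and RGC-32 KO TGF-β cultures were exposed for 24 h to TGF-β at 10 ng/ml, a cytokine that drives reactive changes in astrocytes. Cells were starved of serum overnight before the stimulation. WT littermates served as the study's controls, the strain was labelled C57BL/6 in both genotypes with no substrain, and the labels call the 2 libraries of a group biological replicates without saying whether they came from separate or pooled animals. P-values therefore measure the spread between these libraries.

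Glutathione, a tripeptide of glutamate, cysteine and glycine, is the main soluble antioxidant of the cell, and astrocytes export it to supply neurons with its precursors. Under oxidative stress NRF2 escapes from its inhibitor KEAP1, pairs with a small MAF protein and binds antioxidant response elements (ARE) near genes for cystine import, glutathione synthesis, NADPH-dependent reductases and haem breakdown. Glutathione and thioredoxin reductases draw on NADPH, part of which NNT makes inside mitochondria from NADH and the proton gradient.

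Promoter sequences, from 250 bases before to 50 bases after a RefSeq transcription start (GRCm38.p6), were at hand for 6 of the 10 genes and were searched on both strands for the ARE core TGACNNNGC and for the amino acid response element TGATGCAA, to which ATF4 binds. Both motifs, and the overlapping AP-1 and MAF site TGAGTCAGC, were picked with the sequences in view. A stretch with a match is shown for each gene that held one, 5′ to 3′ on the gene's strand with the match in capitals, because these are the letters that NRF2 and ATF4, both known inducers of Slc7a11, are known to bind.
Slc7a11, chr3:50443652-50443680, minus strand, first base at -67: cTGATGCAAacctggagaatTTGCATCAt
Nfe2l2, chr2:75704885-75704912, minus strand, first capital at -240: cagcccaccTGACTCCGCcatgccccgg
Gclm, chr3:122245414-122245441, plus strand, first capital at -134: ctcccgggcGCACCGTCAactctcacga
Txnrd1, chr10:82859105-82859132, plus strand, first capital at -92: tggatttttGCTTTGTCAttctgacacg
Srxn1, chr2:152105470-152105497, plus strand, first capital at -45: aattcacccTGAGTCAGCggccgggcgc

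The Slc7a11 stretch held TGATGCAA once on each strand. Of 32851 mouse promoters of the same length, 0.895% held the motif at least once and 2, those of Slc7a11 and Chchd10, held it more than once. The promoters of Chac1 and Slc1a4, both called higher under TGF-β in WT astrocytes, held it 1 time each. That of Mthfd2, also called higher, held 0 matches. Any part of this motif in the levels below was not tested. The ARE core was found in the promoters of Nfe2l2, Gclm and Srxn1, in the last at position 29, and in 1 of the 3 promoters of Txnrd1. Over all promoters 12.4% held this core. TGAGTCAGC was found in the promoter of Srxn1, against 0.414% of all promoters. In Gclm and Txnrd1 the core lay on the opposite strand and is printed as its reverse complement. A match is a description of the letters, and the promoter of Nqo1 held none of the 3 motifs in this window. The promoters of Hmox1, Gclc, Gsr and Nnt were not analysed here.

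Library totals lay between 14920561 and 18956038 counts, so that the least abundant of the 10 genes, Nqo1, still had at least 428 counts in every library. Levels are given below as CPM, counts scaled by library size and TMM factor. Rgcc itself measured 5.16 and 5.61 CPM in untreated WT cultures, which became 11.9 and 23.1 CPM under TGF-β, while KO cultures held 3.89 and 1.66 CPM untreated and 4.29 and 1.72 CPM under TGF-β. Every KO library was below every WT library, although reads for Rgcc remained, and where the deletion lies in the gene is not given in the sources used here. All 10 astrocyte markers were measured, and their summed level was 3580 to 6000 CPM. The same sum was 1160 to 1670 CPM for microglia or macrophage markers and 3800 to 10300 CPM for meningeal fibroblast markers, with Col1a1 the highest. It was 379 to 625 CPM for oligodendrocyte lineage, 292 to 416 CPM for neuron, 245 to 463 CPM for ependymal and 78.8 to 127 CPM for endothelial markers. These sums run over unlike gene lists and do not give shares of cells. The study removed the meninges before culture and reported GFAP in nearly all of the isolated cells. In such cultures, fewer cells of a type and less RNA per cell cannot be told apart.

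Per length, Hmox1 was the most abundant of the 10 transcripts in untreated WT astrocytes, with a mean of 262 FPKM (fragment counts scaled by transcript length and library size). HMOX1 breaks haem down to biliverdin, iron and carbon monoxide. Nfe2l2 followed at 115 FPKM and Txnrd1, cytosolic thioredoxin reductase, at 80.2 FPKM. Srxn1, which repairs overoxidized peroxiredoxins, measured 62.3 FPKM and Gclm, the modifier subunit of glutamate-cysteine ligase, 61.3 FPKM, and the libraries of these neighbours overlapped. Below them stood the catalytic subunit Gclc at 39.5 FPKM and glutathione reductase, Gsr, at 24.6 FPKM. Nnt (22.2 FPKM) and Nqo1 (22 FPKM), a quinone reductase that uses NADPH, overlapped each other, and Slc7a11, the cystine and glutamate exchanger, was lowest at 15.4 FPKM. In KO control cultures the order was the same down to Gsr, and Nnt stood last at 11.7 FPKM, overlapping Slc7a11 at 12.4 FPKM.

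**Figure D1:**
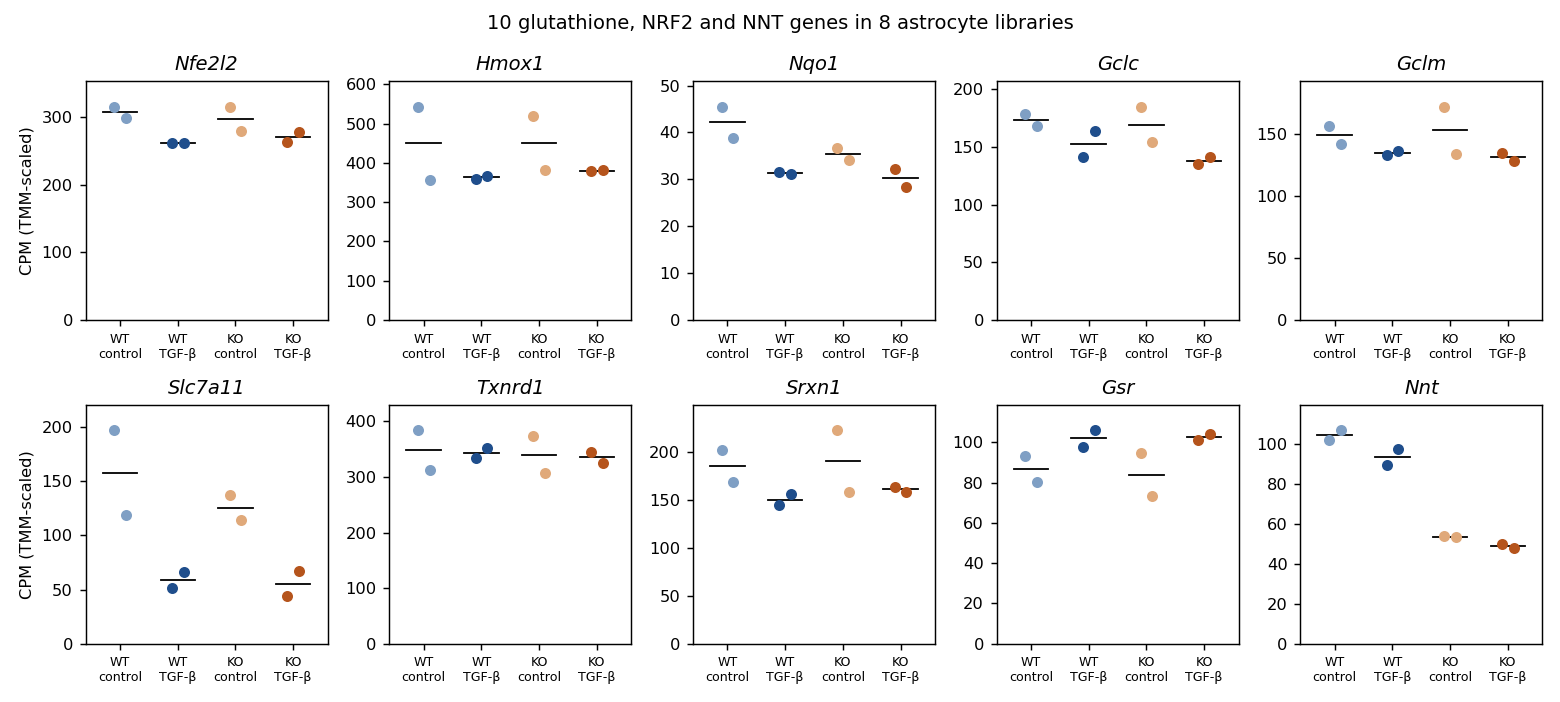
Level of each of the 10 genes in CPM (TMM-scaled, axes from 0), 1 panel a gene, with the 4 groups along the horizontal axis, 1 point a library and a line at the group mean. Slc7a11 lies lower in all 4 TGF-β libraries than in all 4 control libraries, from 43.7 to 66.9 against 114 to 197 CPM, and Nnt lies lower in all 4 KO libraries, from 48 to 54 CPM, than in the WT libraries, from 89.7 to 107 CPM.

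Under TGF-β, the cystine importer was the one gene of the 10 to fall past the threshold, a log2 fold change of at least 0.6 in size with an adjusted p under 0.05, and it did so in both genotypes. The remaining 9 genes had log2 fold changes between -0.43 and 0.28. Slc7a11 (chr3:49892526-50443614, GRCm38, minus strand) imports cystine, the source of the cysteine that limits glutathione synthesis, in exchange for glutamate. Untreated WT cultures held 197 and 119 CPM of its transcript, which compares with 51.6 and 65.9 CPM after TGF-β. KO cultures held 137 and 114 CPM untreated and 43.7 and 66.9 CPM after TGF-β. Treated and control libraries did not overlap in either genotype. It fell by 62.8% in WT astrocytes (log2 fold change -1.43 ± 0.27 SE, 95% interval -2.05 to -0.80, edgeR adjusted p = 0.00605, n = 2 per group) and fell by 55.8% in KO astrocytes (-1.18 ± 0.27, -1.81 to -0.55, adjusted p = 0.0157). In WT this was 1 of 10 genes lower, beside 5.65% of all genes tested, and in KO 1 of 10, beside 4.93%. The call in KO astrocytes was lost when KO control library 1 (-1.05, adjusted p = 0.072) or KO TGF-β library 1 (-0.90, adjusted p = 0.0883) was left out, and that in WT was kept without any one library. The libraries were not stranded, so that reads of Slc7a11 and of the antisense gene Gm37854, which overlaps it, cannot be told apart.

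Slc3a2, the heavy chain with which the Slc7a11 protein pairs in the membrane, is named here after its values were seen, log2 fold changes of -0.06 for WT and -0.07 for KO astrocytes (adjusted p = 0.718 and 0.691). The difference in the Slc7a11 response between the genotypes, an interaction of 0.25 ± 0.38 on the log2 scale (95% interval -0.63 to 1.13, unadjusted p = 0.527, adjusted p = 1), was within the spread of the libraries. The interval reaches past 1 on the log2 scale, so that these libraries do not exclude a large difference between the genotypes.

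Of the enzymes that build glutathione, neither subunit of glutamate-cysteine ligase passed the threshold under TGF-β. Gclc (chr9:77754535-77794485, plus strand), the catalytic subunit of the rate-limiting ligase, measured 179 and 168 CPM in WT control, 141 and 164 in WT TGF-β, 185 and 154 in KO control and 135 and 141 in KO TGF-β. TGF-β libraries were below control libraries in both genotypes, and the log2 fold changes of -0.19 (adjusted p = 0.195) and -0.30 (adjusted p = 0.0622) did not pass the test. Gclm (chr3:122245557-122270732, plus strand), the subunit that raises the ligase's affinity for glutamate, measured 133 to 156 CPM over the 4 WT libraries and 128 to 172 CPM over the 4 KO libraries. Its log2 fold changes were -0.15 and -0.23 (adjusted p = 0.339 and 0.159), and in KO astrocytes the groups overlapped. A pseudogene and a transcript on the other strand overlap Gclm in the annotation and could share its reads.

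Among the reductases, Gsr (chr8:33652523-33698163, plus strand), which returns oxidized glutathione to its reduced form with NADPH, was the one gene of the 10 with a positive log2 fold change under TGF-β in both genotypes. It measured 93.2 and 80.4 CPM in WT control, 97.9 and 106 in WT TGF-β, 94.7 and 73.2 in KO control and 101 and 104 in KO TGF-β. Treated libraries lay above control libraries without overlap, but the log2 fold changes of 0.23 (adjusted p = 0.183) and 0.28 (adjusted p = 0.121) did not pass the test. Txnrd1 (chr10:82833951-82897712, plus strand), which reduces thioredoxin with NADPH, measured 384 and 313 CPM in WT control, 334 and 352 in WT TGF-β, 373 and 307 in KO control and 345 and 326 in KO TGF-β. In each genotype both treated libraries lay between the 2 control libraries. Both genotypes gave a log2 fold change of -0.02, with 95% intervals from -0.30 to 0.25 (WT) and from -0.29 to 0.25 (KO). Eid3, another tested gene, overlaps Txnrd1 on the same strand, and reads from the shared stretch could have been counted for either. Srxn1 (chr2:152105516-152111376, plus strand) measured 145 to 202 CPM in the WT and 159 to 223 CPM in the KO libraries, with log2 fold changes of -0.30 (adjusted p = 0.16) and -0.24 (adjusted p = 0.262).

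Nfe2l2 (chr2:75675513-75704641, minus strand) measured 315 and 298 CPM in WT control and 261 CPM in both WT TGF-β libraries, and 314 and 279 CPM in KO control and 263 and 277 CPM in KO TGF-β. The log2 fold change of -0.23 ± 0.07 in WT astrocytes (adjusted p = 0.0433) was short of the fold threshold, and KO astrocytes gave -0.14 ± 0.07 (adjusted p = 0.199). Nqo1 (chr8:107388225-107403206, minus strand), a classical NRF2 target, measured 45.5 and 38.8 CPM in WT control, 31.5 and 31.2 in WT TGF-β, 36.7 and 34.1 in KO control and 32.2 and 28.3 in KO TGF-β. All treated libraries were below all controls of their genotype. WT astrocytes gave a log2 fold change of -0.43 ± 0.10 (adjusted p = 0.0133), also short of the fold threshold, and KO astrocytes one of -0.23 ± 0.10 (adjusted p = 0.124), and the difference between the 2 responses was 0.20 ± 0.14 (unadjusted p = 0.192). Without the fold threshold 3 of the 10 genes (Slc7a11, Nqo1 and Nfe2l2) passed in WT, beside 32.9% of all genes, and 1 passed in KO, beside 28.4%. NRF2 is controlled mostly through the stability of its protein, which RNA levels do not measure.

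Hmox1 (chr8:75093621-75100589, plus strand) varied more between control libraries than between treatments. It measured 543 and 356 CPM in WT control and 519 and 383 in KO control, against 360 and 367 in WT TGF-β and 380 and 381 in KO TGF-β. The WT groups overlapped, and the log2 fold changes were -0.31 ± 0.20 (adjusted p = 0.266) and -0.25 ± 0.20 (adjusted p = 0.385). The WT value rested on the control libraries, at 0.03 without WT control library 1 and -0.60 without WT control library 2 (adjusted p = 0.0372, just short of the fold threshold).

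The control library numbered 1 held the higher level for 9 of the 10 genes in WT and for 10 of 10 in KO astrocytes, beside 48.6% and 50.1% of all genes tested. In the TGF-β groups the library numbered 1 was higher for 1 gene of 10 in WT and 5 of 10 in KO, beside 49.4% and 49.6%. In the control groups the 10 genes were thus mostly high in the same library, with gaps between the 2 WT controls of 0.72 for Slc7a11 and 0.61 for Hmox1 on the log2 CPM scale. Microglia or macrophage markers summed to 1670 and 1350 CPM in WT control libraries 1 and 2 and to 1600 and 1460 in KO control, and their part in these gaps was not tested.

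**Figure D2:**
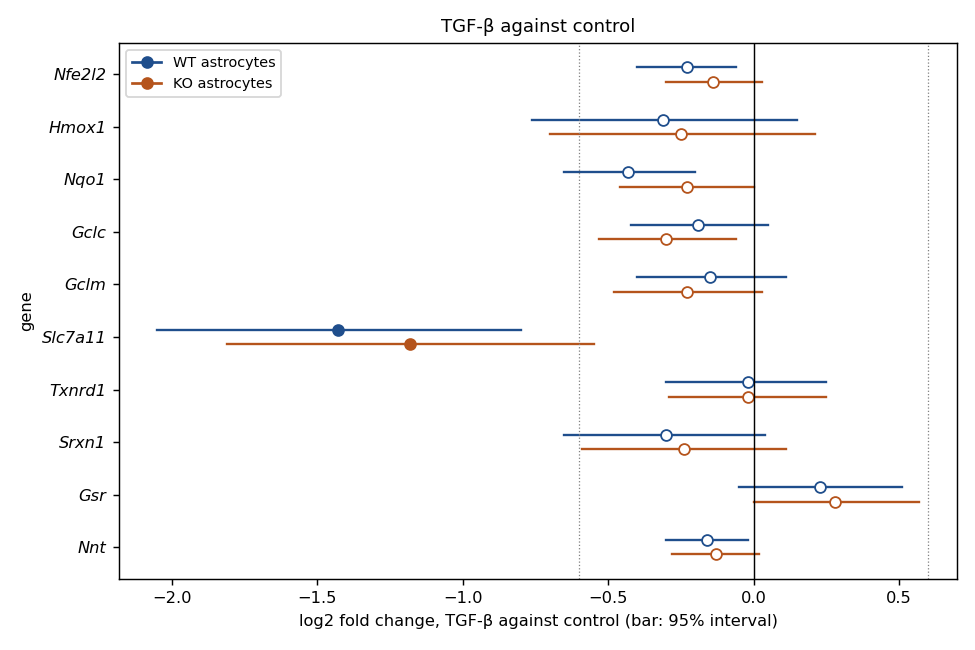
Log2 fold change of each gene in TGF-β against control cultures (horizontal axis) with its 95% interval, in blue for WT and orange for KO astrocytes. Filled points passed the threshold of 0.6 (dotted lines) with an adjusted p under 0.05, which Slc7a11 did at -1.43 and -1.18, and open points did not.

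Across the 10 genes, 9 of 10 log2 fold changes were below 0 in each genotype, and these signs were the same under RLE and upper quartile scaling and in FPKM. Their median was -0.21 for WT and -0.23 for KO astrocytes, beside 0.00 over all genes tested for both. Groups did not overlap for 7 genes lower and 1 higher in WT, where 33.7% of all genes were lower and 35.4% higher in that sense. In KO astrocytes there were 6 lower and 1 higher, beside 32.9% and 34.3%. The 2 genotypes' comparisons used separate control libraries, but same-numbered WT and KO controls deviated together over all genes (correlation 0.491). The 2 sets of signs can therefore not be counted as independent. The meningeal fibroblast marker sum moved with TGF-β as well, 4600 and 5910 CPM in untreated against 9110 and 10300 CPM in treated WT libraries and 3950 and 3800 against 6960 and 6790 CPM in KO libraries. The markers did not rise as a set, with 4 of the 9 tested higher and 5 lower in each genotype (median log2 fold change -0.13 in WT and -0.09 in KO). Col1a1, Col1a2 and Pdgfrb were called higher in both genotypes, and Dcn and Ogn were called lower in WT. The astrocyte sum was 4620 and 4850 against 3700 and 3580 CPM in WT and 5340 and 6000 against 4380 and 4720 CPM in KO libraries. Their part in the values of the 10 genes was not tested.

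Around the 10 genes, the wider glutathione pathway moved in both directions. Of 17 further genes for glutathione synthesis and supply that were tested, 5 rose and 4 fell in WT, beside 7.72% and 5.65% of all genes, and 3 rose and 3 fell in KO astrocytes, beside 6.61% and 4.93%. Slc1a4, a carrier of serine, alanine and cysteine, measured 74.7 and 79.6 CPM in WT control and 160 and 183 CPM in WT TGF-β, and 76.2 and 73.1 CPM in KO control and 173 CPM in both KO TGF-β libraries. It rose 2.22-fold in WT and 2.31-fold in KO astrocytes (adjusted p = 0.000122 and 0.000129). Cth, which makes cysteine from cystathionine, rose 2.08-fold and 1.89-fold (adjusted p = 0.000593 and 0.00134). Anpep, an aminopeptidase that can release amino acids from peptides outside the cell, rose 2.18-fold and 2.96-fold (adjusted p = 0.00136 and 0.000527). Oplah, which opens 5-oxoproline to glutamate in the recycling of glutathione, fell by 41.4% and 46.8% (adjusted p = 0.00032 and 0.000213).

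Of 25 glutathione peroxidases, transferases and glutaredoxins tested, 2 rose and 6 fell in WT, beside 7.72% and 5.65% of all genes, and 2 rose and 5 fell in KO astrocytes, beside 6.61% and 4.93%. The transferase Gsta3 measured 18.3 and 13 CPM in WT control and 4.87 and 7.16 in WT TGF-β, and 18.4 and 12.6 in KO control and 5.29 and 7.46 in KO TGF-β. It fell by 61.8% and 58.8% (adjusted p = 0.00833 and 0.0137), with no overlap between groups. Gstm7 fell by 44.5% and 44.3% (adjusted p = 0.0157 and 0.0198). Both belong to families of closely related genes among which reads could have been split. The Gsta3 call was lost without WT TGF-β library 1 in WT and without KO control or KO TGF-β library 1 in KO, and the Gstm7 call in 2 of 19 alternatives in WT and 4 of 19 in KO. In the other direction Gpx7, a peroxidase of the endoplasmic reticulum, rose 2.02-fold and 1.98-fold (adjusted p = 0.00295 and 0.00445), and Gsto1, an omega-class transferase, 1.9-fold and 1.77-fold (adjusted p = 0.0135 and 0.0255), a call lost in 2 and 3 of 19 alternatives. The median over this list was -0.35 (WT) and -0.24 (KO) on the log2 scale, beside 0.00 over all genes.

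In the list of thioredoxins, peroxiredoxins, catalase and superoxide dismutases, 1 of 21 genes rose and 2 fell in each genotype, near the shares of all genes (7.72% and 5.65% in WT, 6.61% and 4.93% in KO). Prdx6, a peroxiredoxin that takes its electrons from glutathione and is abundant in astrocytes, measured 1060 and 1120 CPM in WT control, 554 and 564 in WT TGF-β, 1360 and 1260 in KO control and 641 and 677 in KO TGF-β. The levels with TGF-β lay far below control in both genotypes. It fell by 48.6% and 49.8% (adjusted p = 0.000182 and 0.000201). Txnip, which binds and blocks thioredoxin, fell by 37.4% and 40.2% (adjusted p = 0.00379 and 0.00312), and Msrb3, a methionine sulfoxide reductase, rose 1.72-fold and 1.56-fold (adjusted p = 0.00231 and 0.00657), the latter call being lost in 5 of 19 alternatives.

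Of 18 genes that supply NADPH, 2 rose and 1 fell in each genotype, again near the shares of all genes (7.72% and 5.65% in WT, 6.61% and 4.93% in KO). Aldh1l2, which makes mitochondrial NADPH from formyl-tetrahydrofolate, measured 12.1 and 12.9 CPM in WT control, 32.7 and 46.7 in WT TGF-β, 13.2 and 10.7 in KO control and 32 and 31.8 in KO TGF-β. It rose 3.17-fold and 2.68-fold (adjusted p = 0.000566 and 0.00137). Mthfd2, a further enzyme of mitochondrial folate metabolism, rose 1.83-fold and 1.54-fold (adjusted p = 0.00192 and 0.0103), and Idh2, the mitochondrial NADP-dependent isocitrate dehydrogenase, fell by 42.7% and 41.3% (adjusted p = 0.000566 and 0.000791). The Mthfd2 call in KO astrocytes was lost in 5 of 19 alternatives.

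The regulators of NRF2 were mostly not past the threshold, 1 of 14 rising in WT, beside 7.72% of all genes, and 3 in KO astrocytes, beside 6.61%, and none falling. Bach2, a repressor that competes at MAF sites, rose 1.75-fold in WT and 1.54-fold in KO (adjusted p = 0.00798 and 0.0262). Nfe2l3, a relative of NRF2, rose 2.05-fold in KO (adjusted p = 0.0308) and was 1.77-fold of control in WT (adjusted p = 0.0536), and the small MAF gene Maff rose 1.52-fold in KO (adjusted p = 0.00373) and passed the adjusted p but not the fold threshold in WT (1.43-fold, adjusted p = 0.00592). In KO astrocytes these calls were lost in 7 of 19 alternatives each for Bach2 and Nfe2l3 and in 12 of 19 for Maff, and the WT call of Bach2 in 3 of 19. Keap1, named after its values were seen, had log2 fold changes of -0.18 and -0.05 (adjusted p = 0.0503 and 0.547).

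Of 11 genes of haem and iron handling, 1 fell in WT, beside 5.65% of all genes, and none in KO astrocytes, beside 4.93%. That gene was Blvrb, a biliverdin reductase, at -0.63 and -0.55 on the log2 scale (adjusted p = 0.0401 and 0.0684). Its call was lost in 6 of 19 alternatives, by limma-voom (adjusted p = 0.0506) and without WT control library 1 (-0.42), WT TGF-β library 1 (-0.56) or 2 (-0.72) or either KO TGF-β library (-0.64). Of 15 other NRF2-driven detoxification genes, 1 rose and 2 fell in WT and 1 rose and 1 fell in KO, beside 7.72% and 5.65% and 6.61% and 4.93% of all genes. Akr1b8, an aldo-keto reductase with close relatives, rose 1.71-fold and 1.92-fold (adjusted p = 0.00489 and 0.00314), and Ephx1, an epoxide hydrolase, fell by 36.2% and 35.8% (adjusted p = 0.004 and 0.00503). Cbr3, a carbonyl reductase, fell by 35.5% in WT (adjusted p = 0.00844) and passed the adjusted p alone in KO (-0.43, adjusted p = 0.0407). The WT call was lost in 2 of 19 alternatives for Cbr3 and in 3 of 19 for Akr1b8. Of 9 NADPH oxidase genes, 1 rose in each genotype, beside 7.72% of all genes in WT and 6.61% in KO, and the other 8 did not pass. Nox4, which makes hydrogen peroxide and is a known TGF-β target, rose 2.25-fold and 2.77-fold (adjusted p = 0.00127 and 0.000676).

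**Figure D3:**
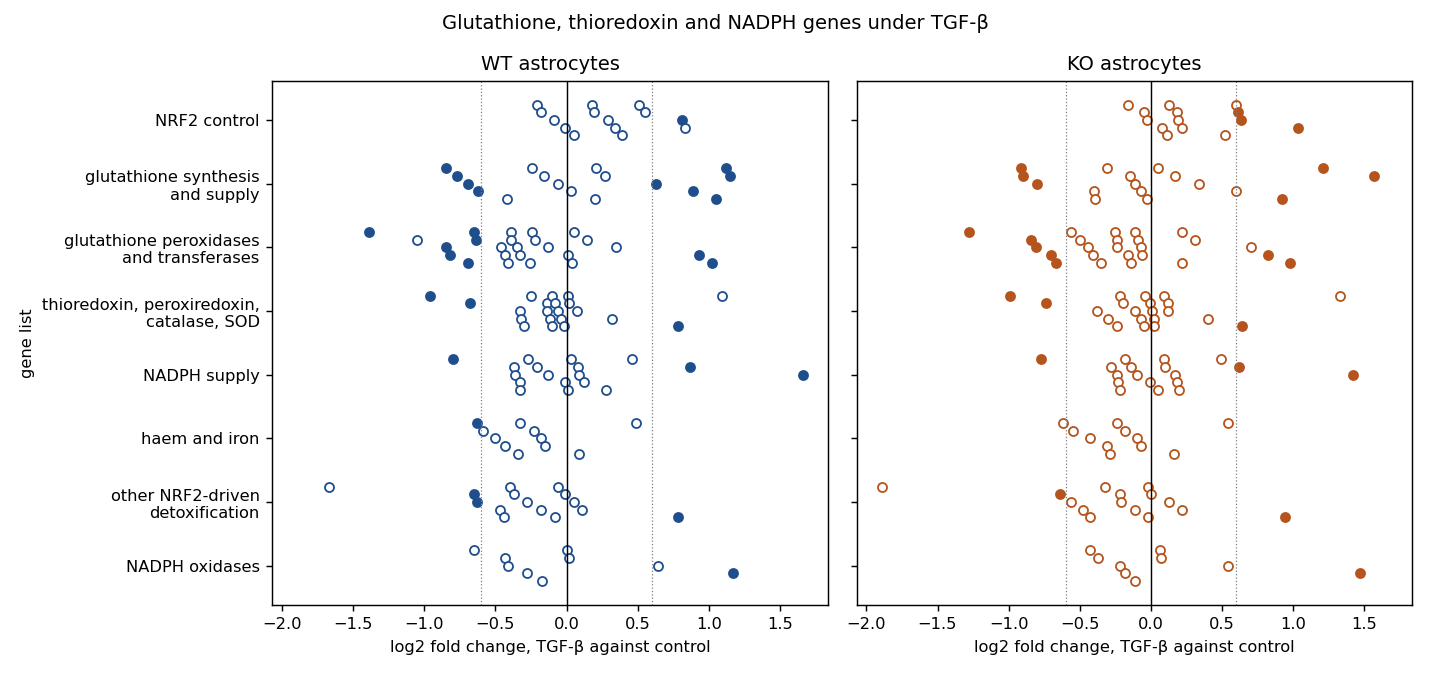
Log2 fold change under TGF-β (horizontal axis) of every tested gene in 8 gene lists (vertical axis), WT at left and KO astrocytes at right, 1 point a gene, filled where the change passed the threshold (dotted lines at 0.6 in either direction). Filled points lie on both sides in the lists of glutathione supply, of peroxidases and transferases and of NADPH supply, with Aldh1l2 at 1.66 in WT and Gsta3 at -1.39.

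Between genotypes, Nnt was the one gene of the 10 past the threshold, lower in RGC-32 KO astrocytes with and without TGF-β. NNT (chr13:119335448-119408997, GRCm38, minus strand) sits in the inner mitochondrial membrane, and its gene is known to carry a deletion of several exons in C57BL/6J mice that C57BL/6N mice lack. The study's own lists of genotype differences, made from these libraries, include Nnt, so its genotype values are given as a description. The level was 102 and 107 CPM (1577 and 1801 counts) in WT control and 54 and 53.4 CPM (846 and 903 counts) in KO control. With TGF-β it was 89.7 and 97.6 CPM in WT (1622 and 1527 counts) and 50.2 and 48 CPM in KO (749 and 727 counts). The KO libraries lay between 48 and 54 CPM, all below the lowest WT library, and the 2 libraries of each group were close to each other. The log2 difference of KO against WT was -0.96 ± 0.06 in control (95% interval -1.11 to -0.81) and -0.93 ± 0.06 with TGF-β (-1.08 to -0.78), levels 0.513 and 0.525 times those of WT. In control 1 of 10 genes was called lower, beside 0.0074% of all genes, which was Nnt alone, and with TGF-β 1 of 10, beside 0.0222%. Without the fold threshold the share of all genes with TGF-β was 0.0518%, and Nnt was again the one gene of the 10. The call in control was lost without KO control library 1 or 2 (-0.97 and -0.95), and that with TGF-β without WT TGF-β library 2, KO TGF-β library 1 or KO TGF-β library 2 (-0.86, -0.95 and -0.91).

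TGF-β itself left Nnt near its control level, at -0.16 ± 0.06 for WT (adjusted p = 0.0843) and -0.13 ± 0.07 for KO astrocytes (adjusted p = 0.177) on the log2 scale, although treated and control libraries did not overlap in either genotype. The difference between the 2 responses was 0.03 ± 0.09 (95% interval -0.18 to 0.24, unadjusted p = 0.744). The count has 2 limits. The GENCODE M21 annotation holds a second gene model also named Nnt (chr13:119335528-119408952, minus strand) over the same stretch, and the authors' counting could have divided reads between them or dropped those shared. The mouse reference genome is of C57BL/6J origin, so that reads from exons absent in that substrain had no place to align.

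**Figure D4:**
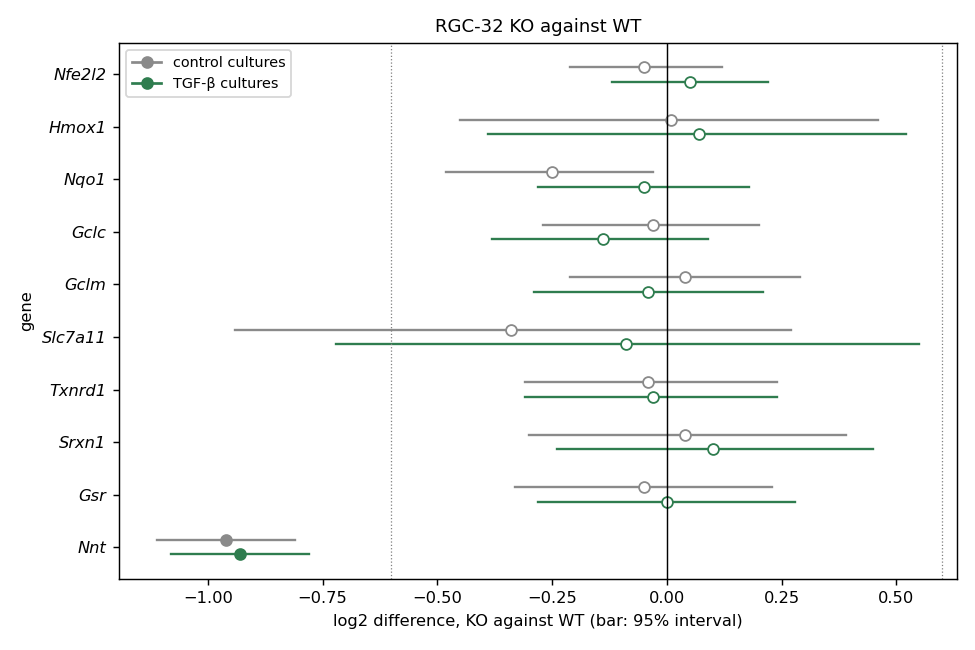
Log2 difference of RGC-32 KO against WT (horizontal axis) for each gene with its 95% interval, in grey for control and green for TGF-β cultures, filled where past the threshold (dotted lines at 0.6 in either direction). Nnt lies at -0.96 and -0.93, and the intervals of the others include 0 except that of Nqo1 in control cultures (-0.25, interval -0.48 to -0.03).

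The other 9 genes lay between -0.34 and 0.04 (KO against WT, log2) in control and between -0.14 and 0.10 with TGF-β. Nqo1 was lower in KO control libraries without overlap, at -0.25 ± 0.10, which did not hold over all genes tested (unadjusted p = 0.0319, adjusted p = 0.691), and differed by -0.05 with TGF-β. Slc7a11 differed by -0.34 ± 0.26 in control (adjusted p = 0.847) and -0.09 ± 0.28 with TGF-β (adjusted p = 0.936), with overlapping libraries. In control 2 genes (Nqo1 and Nnt) were lower without overlap, beside 17.4% of all genes, and none higher, beside 15.5%. With TGF-β 2 (Gclc and Nnt) were lower, beside 22.4%, and 3 (Nfe2l2, Hmox1 and Srxn1) higher, beside 23.9%. None of the genes of the 8 pathway lists was called between genotypes, beside 0.037% of all genes in control and 0.0444% with TGF-β. Marker genes of the cultures also leaned to 1 side by genotype, without any call. In control all 9 meningeal fibroblast markers tested were lower in KO (median -0.39 on the log2 scale) and 9 of 10 astrocyte markers higher (median 0.21). Of all 13509 genes tested, 7084 were lower and 6425 higher there. With TGF-β 8 of 9 fibroblast markers were lower (-0.35) and 9 of 10 astrocyte markers higher (0.21), beside 6742 lower and 6767 higher of all genes. Markers of a cell type can vary together, so these signs cannot be counted as independent. The part of these cell types in the genotype values of Nnt and the other genes was not tested.

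No gene of the 10 passed the test of the interaction of genotype and TGF-β, nor did any of the 13509 genes (0%), and none of the 10 had an unadjusted p under 0.05. Over all genes 381 had an unadjusted p under 0.05 by edgeR and 75 by DESeq2, which also gave none past its adjusted threshold. The log2 interaction values of the 10 ranged from -0.11 to 0.25.

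Wdfy1 and Ide, which along with Nnt are known to differ in level between C57BL/6 substrains, were both higher in KO astrocytes. Wdfy1, an endosomal adaptor of Toll-like receptor signalling, measured 25.4 and 21.1 CPM in WT control, 28.1 and 25.6 in WT TGF-β, 66.1 and 75.7 in KO control and 81.3 and 90.1 in KO TGF-β. Its log2 difference was 1.61 ± 0.11 in control and 1.67 ± 0.11 with TGF-β. Ide, the insulin-degrading enzyme, measured 125 and 119, 148 and 141, 193 and 206, and 242 and 251 CPM in the same order of groups, with log2 differences of 0.71 ± 0.06 and 0.77 ± 0.06. Neither gene's WT and KO libraries overlapped. These 2 and Nnt were 3 of the 5 genes called between genotypes in control (0.037% of all genes, 0.0296% higher in KO) and 3 of the 6 with TGF-β (0.0444%). The rest were Fgfbp3 and Stc1 in control, and Stc1, Erdr1 (-1.01) and Hspg2 (-0.79) with TGF-β. Hspg2, named after its values were seen, lies on chromosome 4, which holds none of Nnt, Wdfy1, Ide and Rgcc. In control it differed by -0.34 (adjusted p = 0.505). The call of Wdfy1 was lost in 2 of 19 alternatives in control (without either KO control library) and in 3 with TGF-β (without either WT TGF-β library or KO TGF-β library 2). That of Ide was lost in 9 of 19 in control, among them the replicate block (adjusted p = 0.0539), the fit on 4 libraries (adjusted p = 0.172) and the loss of any library but KO TGF-β library 2, and in 4 of 19 with TGF-β (without any one TGF-β library), with the log2 difference between 0.66 and 0.81 throughout these. The substrain of either genotype is not given in the sources used here, and a difference of substrain and the deletion of RGC-32 cannot be told apart in these groups.

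**Figure D5:**
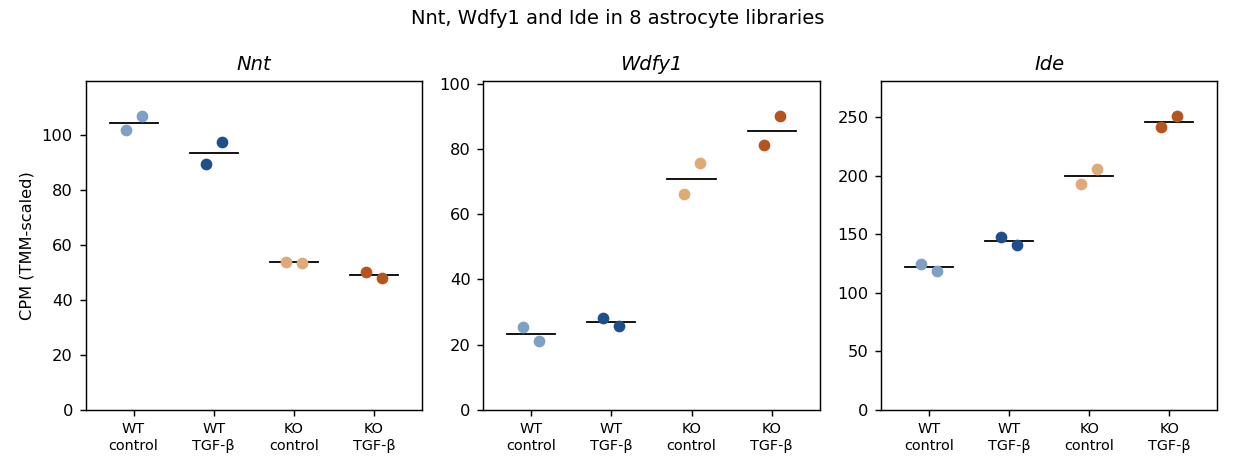
Levels of Nnt, Wdfy1 and Ide in CPM (TMM-scaled, axes from 0), 1 point a library and a line at each group mean. In every panel the 4 KO libraries (orange shades) are separate from the 4 WT libraries (blue shades), below them for Nnt (48 to 54 against 89.7 to 107) and above them for Wdfy1 (66.1 to 90.1 against 21.1 to 28.1) and Ide (193 to 251 against 119 to 148).

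The genes on either side of Nnt on chromosome 13 did not share its difference. Mrps30, a mitochondrial ribosomal protein, differed by -0.02 in control and 0.07 with TGF-β, and Paip1, a poly(A)-binding protein partner, by 0.01 and 0.04 (adjusted p of 0.799 or more). Tmem267, a little further along and named after its values were seen, differed by -0.62 and -0.55 (adjusted p = 0.223 and 0.129). Of the other genes called in control, Fgfbp3 (0.98) lies 349 kb from Ide on chromosome 19. Stc1 (1.99) lies 295 kb from Entpd4, another gene on the substrain list that was not analysed here, and 10247 kb from Rgcc, all on chromosome 14, and both genes were named after their values were seen. Their calls in control were lost in 11 of 19 alternatives for Fgfbp3 and 10 of 18 for Stc1.

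Over the 8 libraries, the 5 tested genes whose log2 CPM ran most closely with that of Nnt were Atad5 (Pearson r = 0.978), Kdm5d (0.965), Tbx18 (0.963), Dnah8 (0.957) and Erdr1 (0.956). The most opposite was Wdfy1 (-0.997), and Ide was at -0.977. These 8 points fall into WT and KO clusters, so that any gene which differs between genotypes has a high coefficient, and the values are given as a description. Tbx18 is also on the list of meningeal fibroblast markers. Kdm5d differed by -0.32 in control and -0.30 with TGF-β (KO against WT, log2) without a call. The sex of the pups was not among the sample attributes used here, and the part of sex in these values was not tested.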

How the data were processed

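RNA-seq was performed in 8 libraries of cultured neonatal mouse astrocytes, 2 for each of 4 groups set by genotype and TGF-β, grouped by their labels. According to the deposited records, the authors aligned unstranded reads with STAR to mm10 and deposited raw counts as whole numbers for each gene symbol, with no scaling, and the program that counted them is not given in the sources used here. FPKM values were made by the authors with Cufflinks and deposited in a second table, used here for levels per length and as an alternative. Tables of the authors' own DESeq comparisons, which hold fold changes and p-values, were not used.

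Counts were tested with the quasi-likelihood test of edgeR 4.0.16 (R 4.3.3) after filterByExpr and TMM scaling, in 1 model with a mean for each group, with Benjamini-Hochberg adjustment over all 13509 genes tested. Every adjusted p in the text is from this fit unless another tool is named. A gene was called at a log2 fold change of at least 0.6 in size with an adjusted p under 0.05. Log2 CPM used a prior count of 2. Library totals were 14920561 to 18956038 counts. Taken over all genes, replicates of a group differed by more than sampling noise (chi-square per degree of freedom 6.14 to 10.1). This did not hold for every gene and group. For Nnt in KO control the SD between libraries was 0.693% of the mean, against 3.38% from counting alone. The test was checked on simulated counts.

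The 10 genes and all gene lists were chosen with earlier results of these data known, so their p-values are not independent evidence. Besides the 10, genes were named by rule: at most the 4 called genes of each pathway list with the largest log2 fold change under TGF-β, the substrain genes tested, the 5 genes that correlate best with Nnt, Rgcc, and the nearest tested gene on each side of Nnt. The few genes named outside this rule (Slc3a2, Keap1, Tmem267, Fgfbp3, Stc1, Hspg2 and Chac1) were chosen after their values were seen. Positions are from GENCODE M21 (13793 of 13937 genes matched by symbol) and promoters from RefSeq. Alternatives were DESeq2 1.42.0, limma 3.58.1 (voom, and log2 FPKM with pseudocounts of 1 and 0.1), fits on 4 libraries, RLE and upper quartile scaling, other filters, no fold threshold, a replicate block and leaving out each library.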

Additional observations from a re-analysis of the deposited data

How the results depend on the processing

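Of 940 recomputed values of the 10 genes, 877 kept their direction and side of the threshold, 7 lost the call and 56 changed sign, none of the latter past the threshold. Slc7a11 passed under TGF-β in WT in 19 of 19 alternatives (-1.76 to -1.02 on the log2 scale, adjusted p up to 0.041) and in KO in 17 of 19 (-1.54 to -0.90, adjusted p up to 0.0883). Nnt was lower in KO in all 19 alternatives of each comparison, at -0.86 or lower in control and -0.81 or lower with TGF-β, with 17 and 16 of them past the threshold. Leaving out 1 library at a time gave 0 to 1 of the 10 genes called for TGF-β in KO astrocytes and for each genotype comparison, in fits where the lone library is assumed to vary like the other groups. Without the fold threshold 3 genes were called for TGF-β in WT. On leaving out 1 library, signs also turned under TGF-β for Hmox1 in WT (-0.60 to 0.03), Txnrd1 in WT (-0.18 to 0.13) and KO (-0.15 to 0.11) and Srxn1 in KO (-0.46 to 0.00, main value -0.24). They turned for Slc7a11 between genotypes in control (-0.65 to 0.07) and with TGF-β (-0.44 to 0.20) and in the interaction (-0.15 to 0.57), for Nqo1 between genotypes with TGF-β (-0.14 to 0.03) and for Nnt in the interaction (-0.05 to 0.10). In FPKM, Nqo1 and Slc7a11 differed between genotypes with TGF-β by 0.01 each under both pseudocounts. The genotype and interaction values of the other 7 genes, all short of the threshold, account for the remaining 39 changes of sign. The cause was not tested. Of 874 recomputed values of the pathway genes named under TGF-β, 796 stayed on their side of the threshold, 69 lost a call, 9 gained one and none changed sign. For Wdfy1, Ide, Stc1 and Fgfbp3 between genotypes, 102 of 151 stayed, 48 lost a call and 1 gained one.

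Same-numbered control and TGF-β libraries did not deviate together (correlations of -0.343 in WT and -0.348 in KO), so the numbers were not taken as pairs, although same-numbered WT and KO libraries did (0.491 for controls and 0.253 for TGF-β). With the replicate block the genes called among the 10 were 1, 1, 1, 1 and 0 in the 5 comparisons, as without it and with a crossed block, which pairs opposite numbers of control and TGF-β as these signs would have it and was chosen after seeing the data. Over all genes the main fit called 1806 under TGF-β in WT and 1559 in KO, against 1101 and 1024 in FPKM with a pseudocount of 1 and 1200 in WT without WT TGF-β library 2. Upper quartile scaling gave 857 higher and 1055 lower in WT and 747 and 895 in KO, against 1043 and 763 and 893 and 666, and FPKM shifted the median of all genes by -0.10 to -0.13. Between genotypes 5 and 6 genes were called, against 13 and 34 by DESeq2, 2 in control on 4 libraries, 3 with TGF-β by limma-voom, 2 and 3 with the block, 10 and 36 with the crossed block, and 0 to 3 and 0 to 6 without 1 library. With 2 libraries a group, differences of the size seen for Hmox1 were not detectable for a gene as variable as it.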
